A study of Mus musculus with 9 samples.

Results

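The 7 genes described here encode the zinc finger transcription factors GATA2, GATA3, GATA4, GATA5 and GATA6 and their FOG cofactors, FOG1 (gene Zfpm1) and FOG2 (gene Zfpm2). A peak of the CHD7 list was assigned to a gene when its midpoint lay in the regulatory domain of that gene, a rule of position that used no signal. By this rule 8 of the 3761 peaks belonged to 4 of the 7 genes. Gata6 had 3 peaks, Gata4 and Zfpm1 had 2 each and Gata3 had 1, while Gata2, Gata5 and Zfpm2 had none. A domain began with the basal domain, 5 kb before and 1 kb after the transcription start site (TSS), and was extended on each side to the next gene's basal domain or up to 1 Mb from the TSS.

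CHD7, an ATP-dependent chromatin remodeller, was mapped by CUT&RUN, in which an antibody directs a nuclease to the protein and the released DNA is sequenced. The cells were wild-type (WT) cardiac progenitor (CP) cells, grown in culture from C57BL6 mouse embryonic stem cells (ESCs) and taken at day 5 of differentiation towards cardiomyocytes. Anti-CHD7, IgG as negative control and input were the 3 groups, each with 3 biological replicates, and no group carried a treatment or mutation. The deposited list is a single list of positions for the 3 anti-CHD7 replicates, with neither counts nor heights. Depth, the values in each replicate and the IgG and input libraries could therefore not be analysed here, no value has a replicate error, and no test was made between groups. The label of the cells could not be checked against marker genes either, as no expression was measured in these libraries. Shares are given with Wilson 95% confidence intervals (CIs), which cover counting error only.

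GATA factors bind the sequence GATA in its flanking context through paired zinc fingers. GATA4, GATA5 and GATA6 act in heart, gut and other mesodermal and endodermal organs, whereas GATA2 and GATA3 are best known from blood, sympathetic neurons and, for GATA3, T cells. FOG proteins do not need to bind DNA themselves but attach to the amino-terminal finger of a GATA factor and can turn its effect from activation to repression. FOG1 is needed for red cells and megakaryocytes, and FOG2 partners GATA4 in the heart and its coronary vessels.

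To show what the peaks of Gata4, Gata3 and Zfpm1 look like as sequence, the 200 bp around each midpoint are given below from the plus strand of mm10 (GRCm38), read from the RefSeq copy of that assembly. For the peak inside Gata4 the intronic part is given instead. Capitals mark each match to the motifs searched, which are spelled out further on. Those of Gata6 are described by position alone.
Gata4, 57.0 kb upstream, chr14:63302119-63302318: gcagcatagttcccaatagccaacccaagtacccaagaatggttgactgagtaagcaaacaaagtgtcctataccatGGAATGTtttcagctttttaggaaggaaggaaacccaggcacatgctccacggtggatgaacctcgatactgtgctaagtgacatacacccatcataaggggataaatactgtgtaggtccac
Gata4, intron 1, chr14:63241646-63241850: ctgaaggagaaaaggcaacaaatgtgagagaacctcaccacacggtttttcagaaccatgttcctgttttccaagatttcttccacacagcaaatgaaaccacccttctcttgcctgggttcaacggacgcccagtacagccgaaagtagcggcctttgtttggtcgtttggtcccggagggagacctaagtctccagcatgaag
Gata3, 135 kb downstream, chr2:9743151-9743350: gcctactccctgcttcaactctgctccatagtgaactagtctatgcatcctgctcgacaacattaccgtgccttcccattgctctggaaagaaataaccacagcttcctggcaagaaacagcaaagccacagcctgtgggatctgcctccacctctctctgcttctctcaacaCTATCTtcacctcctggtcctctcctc
Zfpm1, 101 kb upstream, chr8:122181533-122181732: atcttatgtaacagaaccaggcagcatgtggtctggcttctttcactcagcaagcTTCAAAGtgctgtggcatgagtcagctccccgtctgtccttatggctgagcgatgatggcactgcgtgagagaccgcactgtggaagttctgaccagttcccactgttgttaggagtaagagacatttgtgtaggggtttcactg
Zfpm1, 73.7 kb downstream, chr8:122355697-122355896: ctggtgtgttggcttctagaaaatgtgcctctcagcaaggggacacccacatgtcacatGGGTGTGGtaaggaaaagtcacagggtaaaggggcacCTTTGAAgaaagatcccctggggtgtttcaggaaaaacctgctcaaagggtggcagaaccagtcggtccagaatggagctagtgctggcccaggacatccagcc
In the first of these the capitals are a TEAD motif on the minus strand at bases 78 to 84, and in the intronic part of Gata4 none of the motifs was found. The Gata3 window had a GATA site on the minus strand at bases 174 to 179. Both Zfpm1 windows had a LEF/TCF motif, at bases 56 to 62 and 97 to 103, and the downstream one had a KLF/SP motif at bases 60 to 67 as well.

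**Figure D1:**
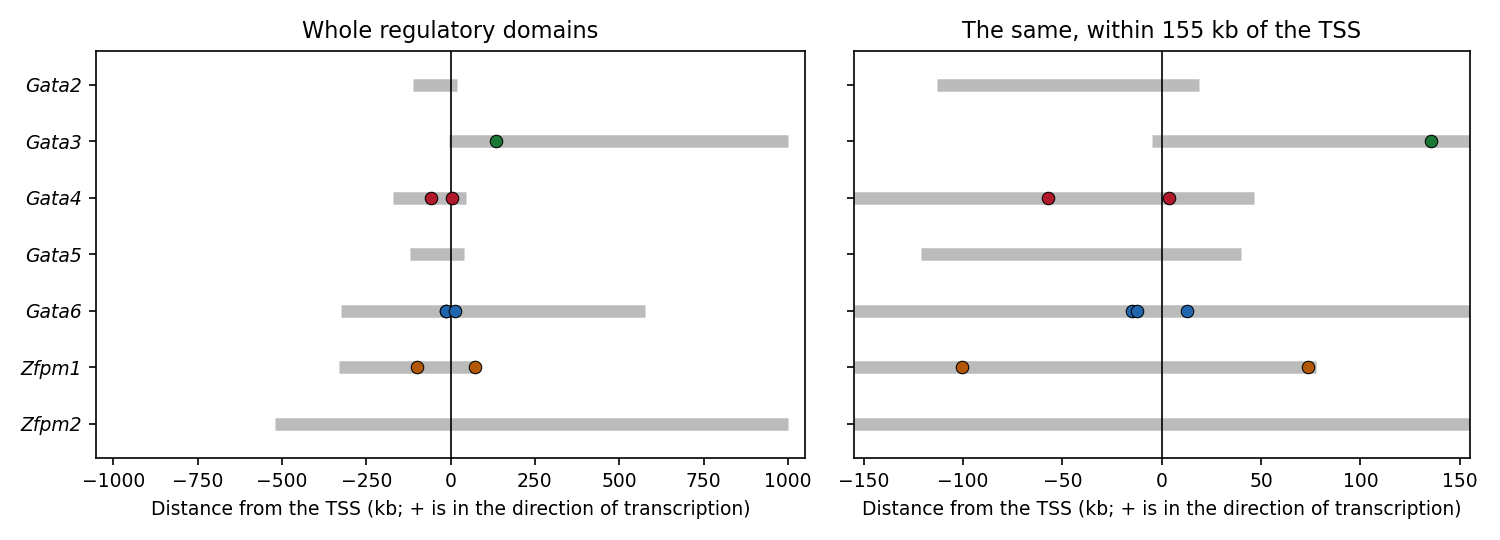
Positions of CHD7 peaks (points) in the regulatory domains (grey bars) of the 7 genes, in kb from the TSS, with positive distances in the direction of transcription. The left panel shows whole domains and the right panel the part nearest the TSS. The 3 peaks of Gata6 lie within 20 kb of its TSS, and the domains of Gata2, Gata5 and Zfpm2 are empty.

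Gata4 encodes a factor that activates cardiac structural genes and is needed for heart tube formation. It lies on the minus strand at chr14:63198922-63271692, and its domain of 217 kb was longer than that of 74.9% of genes. It held 2 peaks, or 9.20 per Mb, where the mean density of the list over the sequenced genome, 1.42 per Mb, corresponds to 0.309. The nearer peak, chr14:63241336-63241850, was 515 bp wide and its midpoint lay 3655 bp downstream of the TSS. It spanned the boundary between intron 1 and exon 2 of 7, with 310 bp in the 5′ untranslated part of that exon and 205 bp in the intron, and ended 187 bp short of the first coding base. Of the 8 peaks it had the highest GC content, 54.8%, and the highest CpG density, 42.7 per kb, which was above that of 91.9% of the list. The other peak, chr14:63301639-63302799, was 1161 bp wide and intergenic, 56971 bp upstream of the TSS used and 30527 bp upstream of the outermost Gata4 transcript start. Its CpG density was 11.2 per kb, below the list's median of 11.5. The midpoints were 60626 bp apart, and beyond them the next peaks of the chromosome lay 817 kb before and 1290 kb after the TSS. The rule also placed the nearer peak with Neil2, which encodes a DNA glycosylase, and the other with Blk, which encodes a kinase of B cells, but Gata4 had the nearest TSS for both.

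Gata6, whose product acts with GATA4 in the heart and is needed in the primitive endoderm, lies on the plus strand at chr18:11052064-11085635. Its domain of 902 kb was longer than that of 94.4% of genes. It held 3 peaks, more than 98.2% of genes had, and 1.28 would correspond to the mean density. All of them lay close to the gene. The first, chr18:11037132-11037783, was 652 bp wide with its midpoint 15012 bp upstream of the TSS. The next, chr18:11039372-11041090, lay 12239 bp upstream and at 1719 bp was the widest of the 8, wider than 94.3% of the list. The midpoints of this pair were 2773 bp apart with 1588 bp between their edges. Of all peaks, 50 of 3761 (1.33%) had another midpoint within 3000 bp, a limit set with this pair in view. Both fell in 1010001N08Rik, a non-coding transcript read away from Gata6 on the opposite strand, outside its exons. The third, chr18:11064857-11065262, was in intron 6 of Gata6, 12590 bp downstream of the TSS used and 6013 bp downstream of the nearest Gata6 transcript start. With 406 bp it was the narrowest of the 8, narrower than all but 4.23% of the list, and with a GC content of 39.2% the least GC-rich. The nearest peaks outside the domain were 622 kb before and 831 kb after the TSS. Gata6 was the nearest gene for each of the 3, although the rule gave the upstream pair to Mib1 too, which encodes a ubiquitin ligase of Notch ligands, and the intronic one to Rbbp8, which encodes a DNA end resection factor.

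Gata3, the factor of T helper and sympathetic lineages, lies on the minus strand at chr2:9857078-9890034. Its domain of 1010 kb ran almost only downstream, since 4930412O13Rik and 9230102O04Rik, a pair of gene models counted as protein-coding in GENCODE, bounded it upstream of the TSS. It held 1 peak, chr2:9742830-9743671, which was 842 bp wide, intergenic and 135349 bp downstream of the TSS, 113406 bp past the end of the gene. No other gene shared this peak. It was also the most isolated of the 8, with the nearest other peak of the list 2662010 bp away, farther than for 99.2% of peaks. At the mean density its domain would hold 1.43 peaks. Gata3 lost this peak, and had 0, within a fixed window of 100 kb and with the outermost 5′ end of each gene as TSS.

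Zfpm1 lies on the plus strand at chr8:122282141-122337251 with a domain of 408 kb, which held 2 peaks where the mean density corresponds to 0.580. The upstream peak, chr8:122181214-122182052, was 839 bp wide and 100508 bp from the TSS, and was shared with Banp, which encodes a protein of the nuclear matrix. The downstream peak, chr8:122355019-122356575, was 1557 bp wide, wider than 91.5% of the list, and 73656 bp from the TSS, 17767 bp past the end of the gene. Its midpoint lay 21166 bp downstream of the nearest start of any Zfpm1 transcript. This peak was the only one of the 8 with another gene nearer, as the TSS of Trhr2, a receptor gene for thyrotropin-releasing hormone, was 4949 bp away. Both midpoints fell in intron 1 of the predicted gene Gm20388, and 174164 bp separated them.

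The genes without a peak differed in how far the nearest one was. For Gata5, at chr2:180325133-180334699 with a domain of 161 kb, it was 141007 bp downstream, in the domains of Adrm1 and Lama5, and 45.7% of genes had a closer peak. The nearest to Gata2, at chr6:88193891-88207032 with a domain of 132 kb, was 598344 bp downstream and a second lay 607560 bp upstream, so that 80.2% of genes had a closer peak. Zfpm2 had the longest domain of the 7, 1520 kb, longer than for 98.9% of genes, from chr15:40135366 to 41655035. At the mean density it would hold 2.16 peaks, and it held 0. The nearest peak was 636806 bp upstream of its TSS, beyond the gene model 9330182O14Rik, which ended the domain on that side, and the next downstream was 2822158 bp away. With gene models named Gm or Rik left out, a choice made after seeing the data, Zfpm2 had 1 peak. Without heights in the list, binding in these domains below the calling threshold could not be examined.

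As a group, 4 of 7 genes had a peak, compared with 4979 of 21911 genes (22.7%) in all. The number was 3 under either rule that dropped Gata3, 5 with the gene models left out, and 0 for the basal domain alone. At least 2 peaks were found for 3 of the 7, against 5.88% of genes, and at least 3 for Gata6 alone, against 1.75%. Those shares cover genes of every domain length. Since a longer domain has more room for peaks, the genes were also read within classes of domain length. This was done for at least 1 peak only, so the counts of at least 2 or 3 have no such comparison. Of genes with domains of 100 to 200 kb, 26.0% had a peak, and neither Gata2 nor Gata5 did. The class from 200 to 500 kb had a share of 40.7%, and both Gata4 and Zfpm1 had peaks. From 500 kb to 1 Mb the share was 48.1%, and Gata6 is in this class. Above 1 Mb it was 40.7%, with a peak for Gata3 and none for Zfpm2. With 1 or 2 of the 7 genes in each class, a share among them could not be compared with that of all genes.

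**Figure D2:**
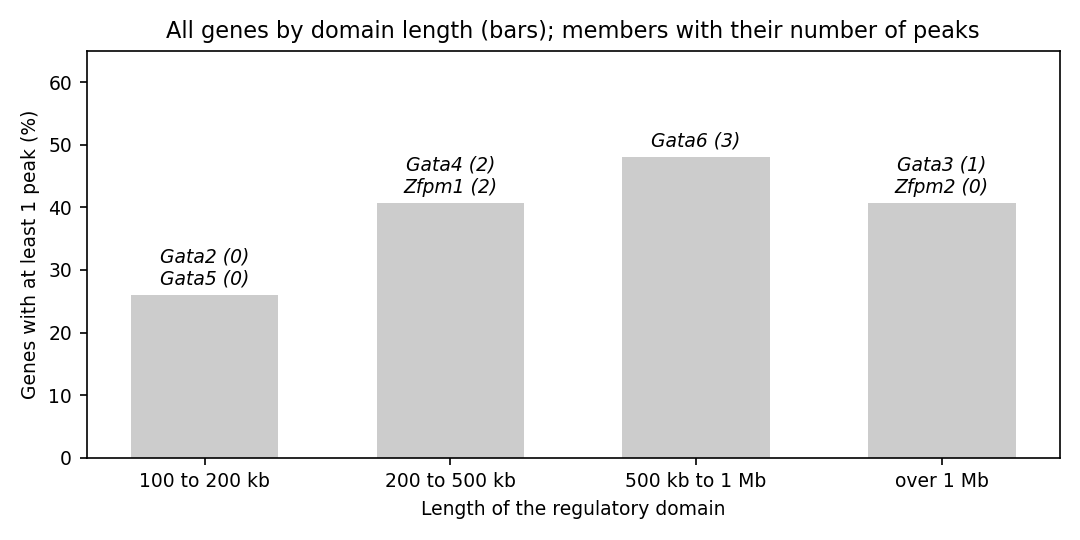
Share of genes with at least 1 CHD7 peak (bars, %) by length of the regulatory domain. The 7 genes are written above the bar of their class with their number of peaks in brackets, from 0 for Gata2, Gata5 and Zfpm2 to 3 for Gata6.

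None of the 7 genes had a midpoint in its basal domain, as 3.16% of all genes did. Within 20 kb of the TSS, a limit chosen with these distances known, Gata4 and Gata6 had a midpoint, compared with 10.8% of genes. Gata6 was 1 of 9 genes (0.0411%) with at least 3 midpoints in that range. The others, named after their values were seen, were Ier5, Mical1, Wap, Ramp3, Slc25a28, Hoxa4, Chmp2a and Cemip. Of the 8 gene and peak pairs, 7 were more than 10 kb apart, against 81.5% of all 6819 pairs. Their median distance was 35992 bp and that of all pairs 57398 bp (95% CI 54636 to 59969). With 8 values, an interval of at least 95% for the former covered their whole range, 3655 to 135349 bp, so that no difference from the list could be detected. The median also moved with the rule, to 13801 bp within a fixed window of 100 kb, 15012 bp with the single nearest gene and 73656 bp for peaks at least as wide as the list's median. Another gene shared 7 of the 8 peaks, and 81.3% of the list lay in the domains of at least 2 genes.

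In width the 8 peaks ran from 406 to 1719 bp with a median of 840 bp, beside 703 bp for the list (95% CI 688 to 721), which lies within that range. The 4 genes did not separate by width, since Gata6 had both the narrowest and the widest peak. The GC content had a median of 45.4% against 47.5% and the soft-masked share, which marks repeats in the assembly, a median of 12.8% against 13.2%. The CpG density had a median of 10.3 per kb against 11.5.

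**Figure D3:**
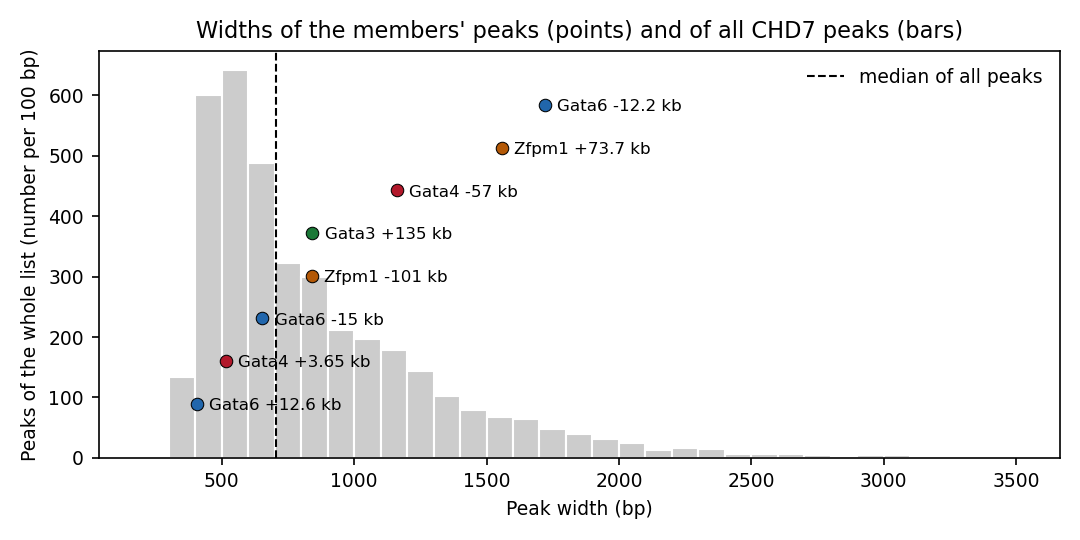
Widths of the 8 peaks (points, coloured by gene and named by distance from the TSS) over a histogram of the widths of all 3761 CHD7 peaks in bins of 100 bp. The height of a point has no meaning. The points run from 406 to 1719 bp, on both sides of the list's median of 703 bp (dashed line).

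Because the genes encode GATA factors, their own peaks were searched for GATA sites, spelled AGATAA or AGATAG or TGATAA or TGATAG, on both strands. In the 200 bp around the midpoint 2 of the 8 peaks had one (25.0%, 95% CI 7.15 to 59.1), the Gata3 peak and the farther upstream peak of Gata6, and 1118 of the list did (29.7%). Anywhere in the peak, 6 of 8 (75.0%, 95% CI 40.9 to 92.9) had a site, beside 70.8% of the list. The CIs hold the shares of the list in both cases. There were 14 sites in 7691 bp, or 1.82 per kb, and 1.93 per kb in the list. They were unevenly spread. Neither peak of Gata4 had any site in these spellings, while every peak of Gata3, Gata6 and Zfpm1 had 1 to 4. The letters GATA with other flanking bases do occur in the upstream Gata4 window printed above. The intronic Gata6 peak and the Gata3 peak were densest, with 4.93 and 4.75 per kb, more than in 92.4% and 91.4% of the list. In the intronic Gata6 peak the sites were 199 bp to the left and 125 bp to the right of the midpoint, and in the 1719 bp peak they were 583 bp to the left and 137 bp to the right. The site of the remaining Gata6 peak was 22 bp to the left of the midpoint.

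Away from the windows printed above, the Gata3 peak had its only AGATAA, and the Zfpm1 peaks had all of their sites. They are shown here with 15 bp to either side, read along the strand of the site, which is in capitals.
Gata3, 122 bp right of the midpoint, chr2:9743370-9743375, minus strand: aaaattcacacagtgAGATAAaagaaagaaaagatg
Zfpm1 upstream, 225 bp left, chr8:122181405-122181410, minus strand: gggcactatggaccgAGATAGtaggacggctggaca
Zfpm1 upstream, 286 bp right, chr8:122181916-122181921, minus strand: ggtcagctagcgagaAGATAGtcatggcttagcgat
Zfpm1 downstream, 620 bp left, chr8:122355174-122355179, plus strand: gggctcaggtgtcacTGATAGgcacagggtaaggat
Zfpm1 downstream, 522 bp left, chr8:122355272-122355277, minus strand: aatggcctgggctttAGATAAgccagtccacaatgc
Zfpm1 downstream, 518 bp right, chr8:122356312-122356317, plus strand: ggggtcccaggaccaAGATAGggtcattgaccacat
Of the 5 sites of Zfpm1 the one spelled AGATAA was in the downstream peak, and the others were AGATAG or TGATAG. The other sites of the Gata3 peak were at chr2:9742992-9742997, chr2:9743019-9743024 and chr2:9743324-9743329, the last of which is in the window shown above.

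**Figure D4:**
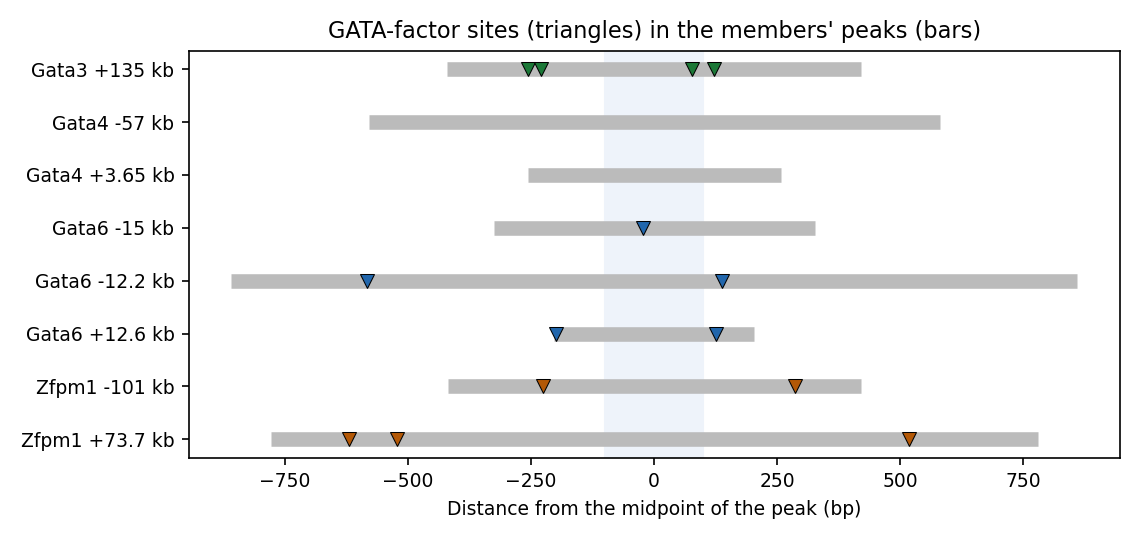
GATA sites (triangles) in the 8 peaks, in bp from the midpoint of each peak along the plus strand. Grey bars are the peaks, named by gene and distance from the TSS, and the shaded band is the central 200 bp, in which 2 of the 8 peaks have a site. The bars of Gata4 have no triangle.

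The other motifs were searched in the same way on both strands, and matches could overlap. In the central 200 bp, LEF/TCF (CTTTGAT or CTTTGAA) was found in both Zfpm1 peaks, 2 of 8 (95% CI 7.15 to 59.1) beside 8.56% of the list. Single peaks had TEAD (ACATTCC), in the upstream peak of Gata4, and KLF/SP (GGGCGGGG or GGGTGTGG), in the downstream peak of Zfpm1. NKX2 (TNAAGTG) was found in the widest Gata6 peak and the HAND/TWIST E-box (CATCTG) in the farthest upstream Gata6 peak. In the list these 4 motifs had shares of 3.83%, 5.29%, 11.4% and 16.4%. No window of the 8 had MEF2 (TATTTNTA), T-box (AGGTGTNA), MEIS/TALE (TGACAG), SOX (ACAATGG), the CTCF core (AGGNGGC) or forkhead (TGTTTAC), which had 4.15%, 2.29%, 15.3%, 3.27%, 14.9% and 3.11% in the list. For 0 of 8 the 95% CI runs up to 32.4%, above each of these shares. Over whole peaks NKX2 matched in 5 of 8 (95% CI 30.6 to 86.3), among them the upstream Gata4 peak, and in 38.2% of the list. The CTCF core matched in 1 of 8 (95% CI 2.24 to 47.1) and in 44.0% of the list, and forkhead in none of the 8 and 12.2%. The CI held the share of the list for each of the 12 motifs.

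**Figure D5:**
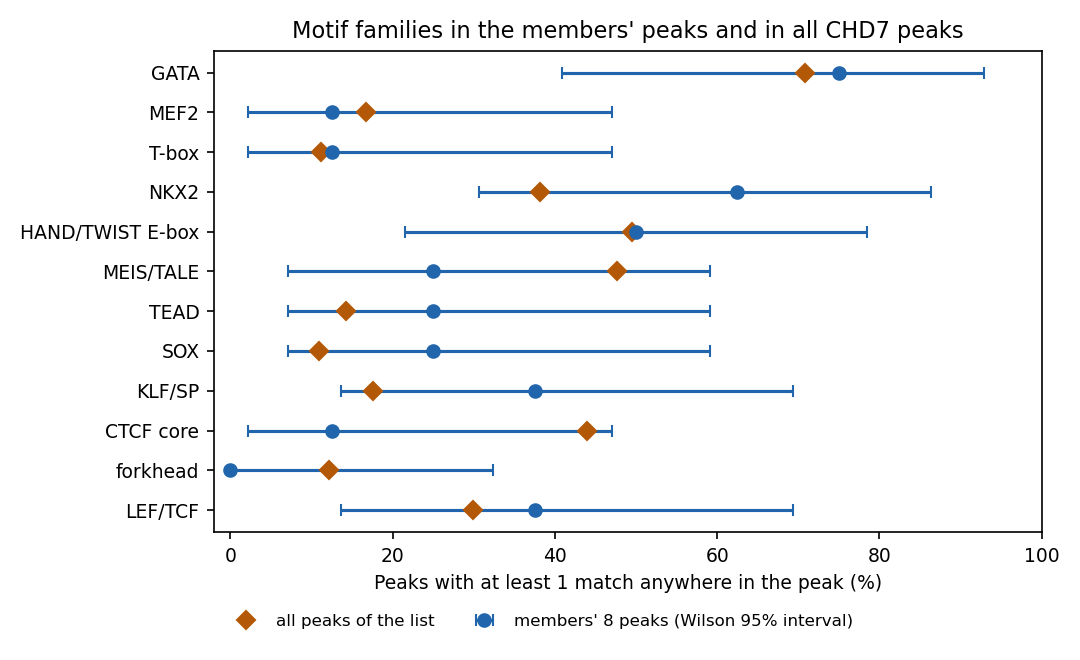
Share of peaks (%) with at least 1 match to each motif anywhere in the peak, for the 8 peaks (circles with Wilson 95% CI) and for the whole list (diamonds). Each diamond lies within the interval of its circle, as for GATA, with 75.0% and 70.8%.

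Annotated regulatory elements gave a further comparison. The RefSeq annotation of GRCm38 lists 1015 tested enhancers, of which 25 (2.46%) overlapped a CHD7 peak. In the domains of the 7 genes there were 17, of which 0 overlapped a peak. Zfpm1 had 12, all described as erythroid, of which the nearest to a peak was 25058 bp from its downstream one. Gata2 had 4, also erythroid, all more than 500 kb from any peak. Gata4 had 1, an element active in the heart of transgenic embryos at chr14:63367789-63369845, which was 64990 bp from the upstream peak.

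Lists of related genes show where the 7 genes stand among the wider family and its network. Of 9 other genes with a GATA-type zinc finger, 3 had a peak (33.3%, 95% CI 12.1 to 64.6), beside 22.7% of all genes. Rere, a corepressor gene, had 3 peaks, the nearest 34.0 kb upstream, while Gatad2a and Mta3, of the NuRD complex, had 1 each at 22.6 and 60.7 kb upstream. The other 6 genes of this list, Gata1 among them, had none. Of 28 partners of GATA factors 12 had a peak (42.9%, 95% CI 26.5 to 60.9), beside the same 22.7%. Runx1, a blood factor, had 4, Smad1, of the BMP pathway, had 3, and the cardiac factor Tbx5, Nfatc1, of valve endocardium, and the corepressor gene Ctbp2, to which FOG proteins bind, had 2 each. Hand2 also had 2, the nearest 388 kb upstream. Of 34 targets of GATA factors 8 had a peak (23.5%, 95% CI 12.4 to 40.0), beside the 22.7% of all genes. The most were 7 for Bmp4, a ligand of the BMP family, and 5 for Foxa2, an endoderm factor. Spi1, Mybpc3 and Ccnd2, for a blood factor, a sarcomere protein and a cyclin, had 2 each, and Spi1 and Mybpc3 had a peak in common. The median domain was 121 kb for the first list, 267 kb for the partners and 126 kb for the targets, and 90.2 kb for all genes, so that these shares rest on domains of different lengths. Among all genes with domains of 200 to 500 kb, the class of the partners' median, 40.7% had a peak, which lies within the partners' CI. The share was 26.0% for 100 to 200 kb, the class of the other lists' medians.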

How the data were processed

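The measurements were CUT&RUN libraries of CP cells in 3 groups of 3 replicates. Per the submitters' processing notes the authors used fastp 0.20.1, BWA 0.7.17.4 and MACS2 2.1.2 with mm10. Peaks were called per sample against IgG, after removal of duplicates by molecular identifiers, and those found in 2 or more replicates were kept. The deposited file holds positions in bp and no score or count. The threshold of the calls is not given in the sources used here.

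Starts were read as counted from 0 and printed as counted from 1. Of each of 21911 protein-coding genes (GENCODE M21) 1 TSS was used, and domains, motifs and annotation were computed on GRCm38.p6 with Python 3.11.15, numpy 2.4.6, pandas 2.3.3, scipy 1.17.1 and pysam 0.24.0. The code was checked on made-up genes, peaks and planted motifs, all of which it recovered. No test was fitted, since the list pools the replicates. Precision is limited by how few peaks the genes had.

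The 7 genes, the gene lists, the motifs and the alternatives were chosen with earlier results of these data known. All 7 genes, the genes sharing their peaks, and up to 5 genes with the most peaks in each list are named, with ties settled by distance. Hand2 is named in addition because it tied with named partners. The annotated neighbours that bound a domain or contain a peak are named as well, chosen after their values were seen. The libraries of IgG and input were not analysed here.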

Additional observations from a re-analysis of the deposited data

How the results depend on the processing

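The number of the 7 genes with a peak was 4, and 3 to 5 under 7 of 8 alternatives. The number of peaks was 8, and 6 to 9 under 6 of them. The basal domain alone gave 0 genes and 0 peaks, and no medians. Peaks at least as wide as the list's median gave 5 peaks. A fixed window of 100 kb dropped Gata3, as did the outermost 5′ end as TSS, under which the basal domain of 9230102O04Rik bounded Gata3 downstream. With gene models named Gm or Rik left out, an alternative chosen after seeing the data, Zfpm2 gained a peak, for 5 genes and 9 peaks. The single nearest gene left 7 peaks. The median distance ran from 13801 to 73656 bp and the median width from 839 to 1161 bp, all within the range of the 8 peaks, which is wide. The number of peaks with a GATA site, 2 in the main search, changed with every setting. It was 6 in whole peaks (70.8% of the list) and 5 in 500 bp (57.0%). In the 200 bp window it was 0 for AGATAA alone (11.8%), 4 for the letters GATA (55.4%), and 1 of the 5 wide peaks (28.7% of the list's wide peaks). No paired analysis was possible because the list pools the replicates, and for the same reason no replicate could be left out. Depth is unknown.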

Other observations

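After the sequences had been read, the other motifs were also looked for within 10 bp of a GATA site. In the downstream peak of Zfpm1 a T-box motif at chr8:122355165-122355172 had 1 base between it and the TGATAG site at chr8:122355174-122355179, both on the plus strand. Of the list, 16 of 3761 peaks (0.425%) had a T-box motif within 10 bp of any GATA site. The same Zfpm1 peak had a SOX motif 10 bp from its AGATAA site, and 0.505% of the list had a SOX motif within 10 bp of any GATA site. In the Gata3 peak an E-box at chr2:9743005-9743010 lay between the leftmost 2 GATA sites, 7 and 8 bp from them, and 3.06% of the list had an E-box that near to a GATA site. With any of the motifs the count was 2 of the 8 peaks and 550 of the list (14.6%).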
